A study of Mus musculus with 10 samples.

Results

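The genes described here encode the subunits of the respiratory chain and ATP synthase in whole-lung cell suspensions of C57BL/6J mice, an inbred laboratory strain. They were taken by name, as the protein-coding genes of GENCODE M21 whose symbol begins with mt-, with Uqcr, with Cox and a number from 4 to 8, with Atp5, or with Nduf, a letter (a, b, c, s or v) and a number, together with Sdha, Sdhb, Sdhc and Sdhd. Of 45786 genes in the deposited tables, 97 were members, 13 encoded in mitochondrial DNA and 84 in the nucleus. The mice had received 12.5 Gy of γ-radiation to the whole thorax, or 0 Gy in age-matched controls, and lungs were collected 24 hours or 1, 4, 12 or 32 weeks later. Each of the 5 irradiated and 5 control libraries was made from pooled RNA of 3 mice. Every time had 1 irradiated and 1 control pool and no replicate pool. Over the 5 times, p-values therefore measure the spread of the irradiation effect between times. At single times they measure the spread among the 5 controls, which differ in age, and the lone irradiated pool is assumed to vary like them. Biological and technical spread are not separated in any of the tests. In bulk RNA, fewer cells of a type and less RNA per cell cannot be told apart.

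The respiratory chain passes electrons from NADH and succinate to oxygen and pumps protons across the inner mitochondrial membrane, and ATP synthase (complex V) uses the resulting gradient to make ATP. NADH dehydrogenase (complex I), cytochrome bc1 (complex III), cytochrome c oxidase (complex IV) and ATP synthase each combine a few hydrophobic core subunits encoded in mitochondrial DNA with many subunits encoded in the nucleus, while succinate dehydrogenase (complex II) is wholly nuclear. Mitochondrial genes are transcribed as long precursors from both strands of a small circle by a dedicated polymerase, and the nuclear genes by RNA polymerase II with factors such as NRF1 and GABPA at many of their promoters. In lung, alveolar type 2 cells, ciliated cells and macrophages are known as rich in mitochondria.

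The mitochondrial set comprised 7 subunits of complex I, 1 of complex III, 3 of complex IV and 2 of complex V. The nuclear set comprised 37 genes of complex I, 4 of complex II, 8 of complex III, 18 of complex IV and 17 of complex V, as the names place them. A few names do not match the role known for the protein: Ndufa4 is known as a subunit of complex IV, Cox7a2l as a factor that joins complexes III and IV, and Atp5s as a coupling factor of ATP synthase. All 13 mitochondrial and 81 nuclear genes passed the filter on low counts and were tested with 15585 genes in all. The other 3 nuclear genes had too few reads: Cox8c, a testis form, had 0 counts in all 10 pools, Cox7b2, a testis form, at most 1.85 in any pool, and Cox8b, a form of heart and muscle, at most 15.7.

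Libraries held an estimated 8679551 to 17473108 fragments before the authors' scaling, the fewest in the 12-week control. The estimate divides each library's total by its most frequent low count, taken as 1 fragment. The 5 markers taken to define lung (Sftpc, Scgb1a1, Ager, Pecam1 and Ptprc) were present in every pool, with a summed level (CPM, counts scaled to a common library size) of 26173 to 36736 CPM in controls and 9173 to 47825 CPM in irradiated pools. Marker lists of cell types also differed between same-time pools. The median log2 difference of 6 alveolar type 2 markers, irradiated minus control, was 0.72, 1.29, 0.74, −1.62 and −1.05 at 24 hours, 1, 4, 12 and 32 weeks. Their summed level was 22299.5 to 39982 CPM in controls and 6812 to 55258 CPM in irradiated pools, and the irradiated pools of 12 and 32 weeks lay below all controls. For 5 of 6 alveolar macrophage markers tested the medians were 0.46, −0.17, −0.39, 0.15 and 0.52, with 6658 to 14077 CPM in controls and 2599.9 to 20549 CPM in irradiated pools. For 6 ciliated cell markers they were −0.62, 0.38, 0.40, −0.36 and 1.02, with 108 to 239.9 CPM in controls and 73.8 to 389 CPM in irradiated pools. The medians of 6 T cell markers were −0.90, −0.96, −0.47, −0.03 and −0.85, with 602 to 865 CPM in controls and 391 to 694 CPM in irradiated pools. Those of 5 B cell markers were −1.08, −0.94, 0.20, 0.01 and −0.13, with 917 to 1418 CPM in controls and 446 to 1354 CPM in irradiated pools, and those of 5 endothelial markers −0.14, 0.61, −0.51, −0.58 and 0.08, with 347 to 694 CPM in controls and 302 to 745 CPM in irradiated pools. Those of 5 fibroblast markers were 0.02, 0.14, −0.55, 0.39 and −1.14, with 1264 to 1979 CPM in controls and 481 to 2119.6 CPM in irradiated pools. In this sum the irradiated pools of 4, 12 and 32 weeks lay below all controls. At 12 weeks the sum and the median differ in direction, and the mean log2 CPM was 6.91 in the irradiated and 6.82 in the control pool. Those of 5 red cell markers were 0.41, 0.06, 0.57, −0.01 and 1.71, with 7454 to 69059.9 CPM in controls and 22055 to 70284 CPM in irradiated pools. Of 4 brown fat markers, Elovl3 was at 0 in all pools and Ucp1 had at most 3.78 counts in any pool. The 2 tested, Cidea and Ppargc1a, had medians of −0.02, −0.15, 0.33, −0.75 and 1.98, and the list a summed level of 4.32 to 9.03 CPM in controls and 4.24 to 17.6 CPM in irradiated pools, highest in the 32-week irradiated pool. The part of these cells in the values that follow was not tested.

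In the irradiated pools the mitochondrially encoded genes stood slightly above the same-time control at 24 hours and below it from 1 week on. The gap to that control was widest at 32 weeks. Against all 5 controls it was no wider at 32 weeks (median log2 change −0.53) than at 4 or 12 weeks (−0.58 and −0.55). The nuclear genes stood slightly below the same-time control from 24 hours to 12 weeks and not at 32 weeks. The median log2 difference in CPM between irradiated and same-time control pool was 0.16, −0.12, −0.36, −0.42 and −0.86 over the 13 mitochondrial genes at the 5 times in order. Over the 81 nuclear genes it was −0.14, −0.20, −0.30, −0.21 and 0.07. The median over all genes tested stayed between −0.00 and 0.03. These are differences of 1 pool against 1 pool and carry no test. Lower than the same-time control were 2, 12, 13, 12 and 13 of the 13 mitochondrial genes and 69, 74, 67, 65 and 33 of the 81 nuclear genes, where 50.2%, 48%, 47.1%, 49.8% and 48.2% of all genes were.

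**Figure D1:**
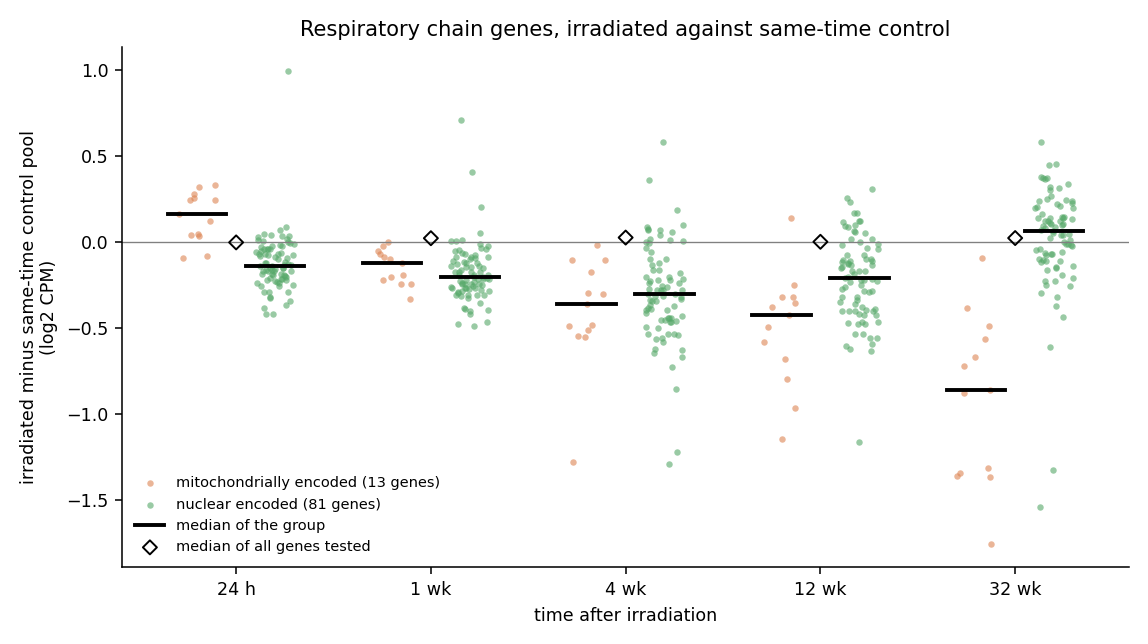
Log2 CPM of the irradiated pool minus the same-time control pool (y axis) at each time (x axis) for 13 mitochondrially encoded and 81 nuclear encoded genes. Each point is a gene, the bar is the median of its group and the open diamond the median of all genes tested. The mitochondrial median goes from 0.16 at 24 hours to −0.86 at 32 weeks, and the nuclear median lies at −0.30 at 4 weeks and 0.07 at 32 weeks. Against all 5 controls, not drawn here, the mitochondrial median was −0.58, −0.55 and −0.53 at 4, 12 and 32 weeks. The nuclear median against them was −0.04 at 24 hours and −0.20, −0.30 and −0.00 at 4, 12 and 32 weeks.

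The mitochondrial genes' share of each library followed the same course. The 13 mitochondrial genes together took 1.29, 1.17, 1.15, 1.16 and 1.55% of counts in the control pools of 24 hours, 1, 4, 12 and 32 weeks, and 1.36, 1.02, 0.904, 0.977 and 0.900% in the irradiated pools. The 4 irradiated pools from 1 week on lay below all 5 controls, and the 24-hour irradiated pool lay within the control range. The 32-week control was the highest of the 10 pools. Against all 5 controls in place of the same-time one, the mitochondrial median at 32 weeks was −0.53, and −0.48 with the 32-week control left out. At 4 and 12 weeks the median against all 5 controls was −0.58 and −0.55.

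The 84 nuclear genes took 1.20, 1.10, 1.30, 1.13 and 1.19% of counts in the control pools and 1.05, 0.935, 1.10, 1.04 and 1.14% in the irradiated pools, in the same order. Control and irradiated pools overlapped, and each irradiated pool lay below its own control in this share of total counts. At 32 weeks that order depended on the scaling, since the summed CPM was 11779 in the irradiated and 10869 in the control pool. The ratio of mitochondrial to nuclear counts within a library, which no scaling of the library alters, was 1.07, 1.06, 0.881, 1.03 and 1.30 in controls and 1.29, 1.09, 0.825, 0.938 and 0.791 in irradiated pools. Its log2 difference within pairs was 0.26, 0.05, −0.10, −0.14 and −0.72. The means were 1.07 ± 0.152 over the 5 controls and 0.987 ± 0.206 over the 5 irradiated pools (mean ± SD), a difference smaller than the spread of either group.

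**Figure D2:**
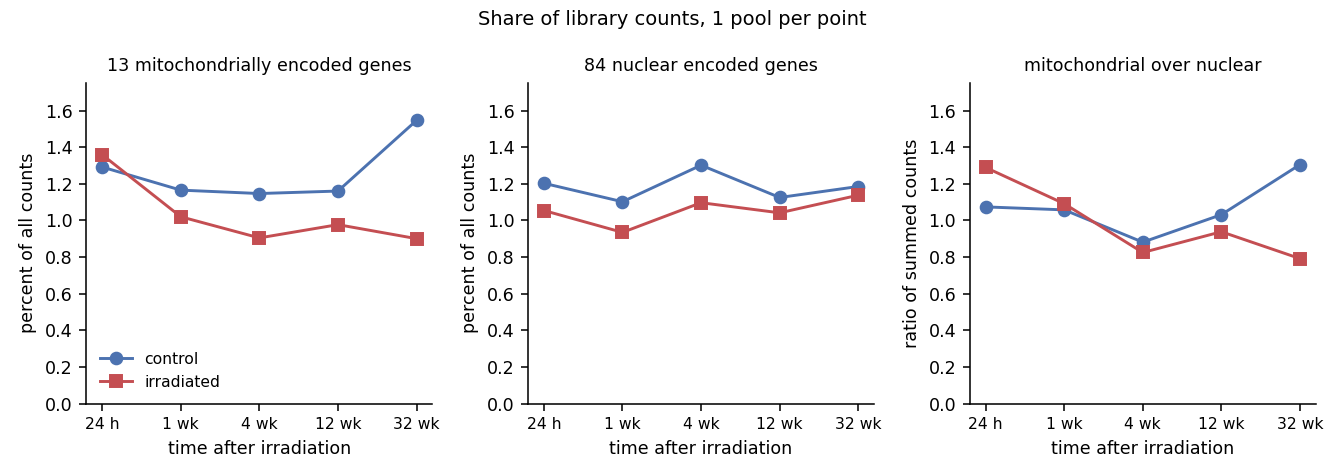
Percent of library counts taken by the 13 mitochondrial and by the 84 nuclear genes, and the ratio of their summed counts (y axes), by time (x axis), for control (blue circles) and irradiated (red squares) pools, 1 pool per point. The irradiated mitochondrial share lies at 0.90% to 1.02% from 1 week on, below the 5 controls at 1.15% to 1.55%.

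In edgeR's quasi-likelihood test over the 5 times, with time as a block, no member passed an adjusted p of 0.05, and 0% of all 15585 genes did. At an unadjusted p under 0.05, 6 of 13 mitochondrial and 19 of 81 nuclear genes were lower and 0 of either were higher, where 4.53% of all genes were lower and 6.56% higher. With the pair of each time left out in turn, those counts ran from 2 to 8 mitochondrial and from 3 to 34 nuclear genes. Without the 4-week pair they were 2 and 3, without the 12-week pair 3 and 10, without the 32-week pair 3 and 34, and without the 24-hour pair 8 and 10. The fitted change was below 0 for all 13 mitochondrial genes, with a median of −0.36, and for 72 of 81 nuclear genes, with a median of −0.16, beside a median of 0.01 over all genes. On log2(FPKM + 1) these medians were −0.26, −0.03 and 0.11. DESeq2's Wald test called 1 member, mt-Nd3, with 1.81% of the genes given an adjusted p called, and limma on log2(FPKM + 1) called 0 of 15585 genes, with 2 mitochondrial genes and 2 nuclear genes lower and 1 nuclear gene higher at an unadjusted p under 0.05, where 2.14% of all genes were lower and 11.3% higher.

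Against the 5 controls at single times, edgeR called no member at any of the 5 times, where 1.07%, 0.0192%, 0.0449%, 0% and 0.815% of all genes were called at 24 hours, 1, 4, 12 and 32 weeks. These comparisons share the 5 control pools. At an unadjusted p under 0.05, 0, 2, 7, 7 and 7 mitochondrial genes and 0, 19, 5, 5 and 2 nuclear genes were lower at those times, where 6.2%, 4.49%, 3.05%, 5.76% and 7.21% of all genes were. With each control left out in turn, the mitochondrial counts ran from 1 to 2 at 1 week, 5 to 10 at 4 weeks, 5 to 9 at 12 weeks and 4 to 9 at 32 weeks. The nuclear counts ran from 5 to 22, 1 to 10, 3 to 14 and 1 to 3. At 1 week 5 nuclear genes were lower without the 24-hour control and 8 without the 4-week control, and 1 mitochondrial gene without the 24-hour or the 32-week control. At 4 weeks 1, 2 and 10 nuclear genes were lower without the controls of 24 hours, 4 weeks and 1 week. At 12 weeks 3, 11, 14 and 10 were lower without those of 24 hours, 1, 12 and 32 weeks. At 32 weeks 4 mitochondrial genes and 1 nuclear gene were lower without the 24-hour control, and 1 nuclear gene without the 4-week control. Higher at that level were 0 mitochondrial genes at every time and 1 nuclear gene, Cox6b2, at 24 hours, where 5.76%, 5.02%, 4.16%, 4.85% and 9.09% of all genes were. Without the 32-week control, 3 mitochondrial genes were higher at 24 hours, with a median of 0.33 over the 13, beside 0.24 with all 5 controls. DESeq2 called Cox6b2 at 24 hours, 0 members at 1 week, mt-Atp6 at 4 weeks, mt-Nd2 at 12 weeks, and mt-Co2 and mt-Nd4 at 32 weeks, with 3.77%, 1.82%, 0.784%, 1.51% and 5.59% of genes called. limma on log2(FPKM + 1) called Cox6b2 at 24 hours, with 0.648% of genes, and no member at the later times, with 0.0128%, 0.103%, 0.0449% and 2.48%. On log2(FPKM + 0.1) it called Cox6b2 at 24 hours, with 0.776% of genes, and no member later, with 0.0128%, 0.109%, 0.0898% and 0.738%. At an unadjusted p under 0.05, limma on log2(FPKM + 1) had 1, 4, 3 and 5 mitochondrial genes and 7, 1, 2 and 2 nuclear genes lower at 1, 4, 12 and 32 weeks, where 3.54%, 1.21%, 2.95% and 3.05% of all genes were.

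Counted by position alone, 0, 7, 13, 12 and 11 of the 13 mitochondrial genes lay below the range of the 5 controls at the 5 times in order. Of all genes tested, 20.7%, 18.7%, 16.7%, 21.7% and 24% did so. Below it in all 3 irradiated pools of 4, 12 and 32 weeks were 11 of 13 mitochondrial genes and 7 of 81 nuclear genes, where 4.28% of all genes were. The 2 mitochondrial exceptions were mt-Co1 and mt-Nd3. Of the nuclear genes, 6, 55, 33, 50 and 11 of 81 lay below the control range at the 5 times, and 2, 1, 1, 1 and 13 above it, where 22.6%, 22.6%, 19.2%, 21.7% and 24.8% of all genes did. Of the mitochondrial genes, 4 lay above it at 24 hours and 0 later.

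Whether the effect of irradiation changed with time was tested as its product with log2 days. edgeR called 0 members there and 0% of all genes, with 9 mitochondrial genes and 1 nuclear gene lower at an unadjusted p under 0.05, where 3.61% of all genes were lower and 3.39% higher. The median slope of the effect was −0.13 log2 units per doubling of time over the mitochondrial genes and 0.01 over the nuclear genes. DESeq2 called 3 members, mt-Nd2, mt-Nd4 and mt-Nd6, with 0.543% of genes called. With the pair of each time left out in turn, 5 to 9 mitochondrial genes kept an unadjusted p under 0.05, 5 without the 24-hour pair and 7 without the 32-week pair. For a slope over time in the controls, edgeR called 0 members and 0% of genes, with 0 members at an unadjusted p under 0.05 in either direction, beside 1.8% of genes lower and 2.59% higher, and DESeq2 called 0 members and 0.167% of genes. Without the 24-hour pair, edgeR gave 4 mitochondrial genes with a slope in controls above 0 at that level, and without the 4-week or the 12-week pair 1 each.

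The 13 mitochondrial genes differed among themselves. Per length, their median level in controls was 565 FPKM (fragments per kilobase of transcript, scaled to library size), 4.38 times the median of 129 FPKM over the 84 nuclear genes. The lowest was mt-Nd4l with 91.8 FPKM and the highest mt-Atp6 with 1771 FPKM. mt-Atp8 and mt-Atp6 are read from 1 shared mRNA and their reading frames overlap by 43 bases, so fragments there cannot be given to 1 gene with certainty. This stretch, shown because it is where the counting of both genes is joined, lies at chrM:7927-7969 of GRCm38 on the plus strand, with the first codon of mt-Atp6 and the last codon of mt-Atp8 in capitals:
mt-Atp8 and mt-Atp6 overlap: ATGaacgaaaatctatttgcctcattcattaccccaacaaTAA

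mt-Nd4l and mt-Nd4 overlap by 7 bases in the same way. mt-Nd5 and mt-Nd6 overlap by 14 bases on opposite strands, and the NexteraXT library does not mark strand. Copies of mitochondrial DNA in the nuclear genome also took reads, at 35.5% to 43.0% of the counts of the 13 genes in controls and 35.6% to 39.7% in irradiated pools. Gm10925, such a copy, stood at 1796 CPM in the 24-hour control beside 1821 CPM for mt-Atp6, and the 6 tested copies had a median log2 difference of 0.09, −0.17, −0.39, −0.46 and −1.02 at the 5 times. Levels of the mitochondrial genes are therefore uncertain to the extent that the authors' counting divided reads between them and these copies. Many of the nuclear genes have processed pseudogenes of near-identical sequence, to which the same limit applies.

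Of the complex I subunits encoded in mitochondrial DNA, mt-Nd6 had the lowest fitted change. It is the only protein gene read from the opposite strand of the circle. mt-Nd6 stood at 127, 112, 101, 131 and 238 CPM in the control pools of 24 hours, 1, 4, 12 and 32 weeks and at 138, 95.8, 72.5, 59.3 and 70.7 CPM in the irradiated pools. The irradiated pools of 1 to 32 weeks lay below all 5 controls, the 24-hour pool lay among them, and the 32-week control was the highest of all. Its log2 difference from the same-time control was 0.12, −0.22, −0.48, −1.15 and −1.75, and its fitted change over the 5 times −0.69 (SE 0.25, edgeR adjusted p = 0.373). The slope of its effect with time was −0.23 per doubling of time (SE 0.04, edgeR adjusted p = 0.675, DESeq2 adjusted p = 0.0117), and −0.18 with edgeR when the 32-week pair was left out (adjusted p = 0.522).

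mt-Nd2, a proton-pumping core subunit, stood at 479, 384, 398, 417 and 645 CPM in controls and 567, 361, 273, 240.1 and 259 CPM in irradiated pools. From 1 week on every irradiated pool lay below the 5 controls, and the 3 latest lay lowest. Its log2 differences were 0.24, −0.09, −0.54, −0.80 and −1.31. DESeq2 called it at 12 weeks (−0.94, SE 0.28, adjusted p = 0.044), where edgeR gave −0.95 (SE 0.29, adjusted p = 0.299).

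mt-Nd4, another proton-pumping subunit, stood at 770.3, 741, 578, 718 and 1086 CPM in controls and 969, 715, 537, 449 and 428 CPM in irradiated pools. Its irradiated level was the second highest of the 10 pools at 24 hours and lay below all controls from 4 weeks on. The log2 differences were 0.33, −0.05, −0.10, −0.68 and −1.34. At 32 weeks it was lower by DESeq2 (−0.85, SE 0.28, adjusted p = 0.0494), while edgeR gave −0.86 (SE 0.30, adjusted p = 0.19).

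mt-Nd3, a short core subunit, stood at 107, 53.7, 101, 84.5 and 104 CPM in controls and 100.2, 50.1, 41.7, 43.2 and 56.8 CPM in irradiated pools. It was lower than the same-time control in 5 of 5 pairs, and the 1-week control lay among the irradiated pools of 1 to 32 weeks, so the groups overlapped. DESeq2 called it over the 5 times (−0.67, SE 0.19, adjusted p = 0.0398), where edgeR gave −0.66 (SE 0.19, edgeR adjusted p = 0.277). Of all genes tested, 5.81% were lower in 5 of 5 pairs.

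The other 3 complex I genes had fitted changes of −0.35 for mt-Nd1, −0.22 for mt-Nd5 and −0.37 for mt-Nd4l. mt-Nd1 had log2 differences of 0.05, −0.19, −0.29, −0.58 and −0.72, mt-Nd5 of 0.28, −0.07, −0.10, −0.36 and −0.86 and mt-Nd4l of 0.24, 0.00, −0.36, −0.38 and −1.36. mt-Nd4l is short and had 18.0 ± 4.66 CPM in controls (SD, n = 5), the lowest count level of the 13 genes. All 3 were below the control range at 4, 12 and 32 weeks and not at 24 hours or 1 week. Over all 7 mitochondrial genes of complex I the median log2 difference was 0.24, −0.09, −0.36, −0.68 and −1.31, beside 0.16, −0.20, −0.30, −0.25 and −0.39 over the 3 of complex IV and 0.04, −0.29, −0.53, −0.37 and −0.53 over the 2 of complex V. Single genes overlapped between the complexes: mt-Co2 of complex IV, at −1.36 at 32 weeks, lay further from 0 than mt-Nd1, mt-Nd3 and mt-Nd5. The difference between complexes was not tested.

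mt-Cytb, the mitochondrial subunit of complex III that holds its b hemes, stood at 2015, 2135, 1538, 1860.0 and 2236 CPM in controls and 2408, 1959, 1518, 1492 and 1406 CPM in irradiated pools. The 24-hour irradiated pool was the highest of the 10, and those of 4 to 32 weeks lay below all controls. At 4 weeks it stood level with its own control, with a log2 difference of −0.02 there and of −0.67 at 32 weeks.

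The 3 complex IV genes, which form its catalytic core, differed from each other. mt-Co1, which carries the site of oxygen reduction, stood at 2422, 2407, 2178, 2504 and 3075 CPM in controls and 3028, 2369, 1933, 2755 and 2355 CPM in irradiated pools. The groups overlapped throughout, and only the 4-week irradiated pool lay below the control range. Its fitted change was −0.02 (SE 0.13, edgeR adjusted p = 0.965), the nearest to 0 of the 13 genes, and took either sign when single pairs were left out or when FPKM were used.

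mt-Co2, which accepts electrons from cytochrome c, stood at 683, 583, 564, 607 and 913 CPM in controls and 764, 507, 458, 430.5 and 356 CPM in irradiated pools. The irradiated pools of 1 to 32 weeks lay below all controls, the 32-week pool lowest. At 32 weeks DESeq2 called it (−0.90, SE 0.27, adjusted p = 0.0202), where edgeR gave −0.91 (SE 0.28, adjusted p = 0.136).

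mt-Co3, the third core subunit, stood at 2951, 2275, 2378, 2394 and 2235 CPM in controls and 2786, 1924, 1699, 2017 and 2093 CPM in irradiated pools. It was lower than its control in 5 of 5 pairs, most at 4 weeks (−0.49) and by −0.09 at 32 weeks. As a share of all mitochondrial gene counts, mt-Co1 took 18.3% to 21.7% in controls and 20.7, 22.1, 22.3, 28.3 and 25.3% in irradiated pools of the 5 times in order. The 7 complex I genes together took 23.0% to 28.0% in controls and 25.1, 24.9, 23.1, 18.9 and 20.6% in irradiated pools, so that the pools of 12 and 32 weeks lay outside the control range in both shares.

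mt-Atp6 and mt-Atp8, the membrane subunits of ATP synthase, had like log2 differences at unlike levels, with control means of 1582 and 93.9 CPM. mt-Atp6 stood at 1821, 1524, 1408, 1501 and 1654 CPM in controls and 1867, 1212, 989, 1119.5 and 1120.4 CPM in irradiated pools. Its 24-hour irradiated pool was the highest of the 10 and the other 4 lay below all controls. DESeq2 called it at 4 weeks (−0.69, SE 0.19, adjusted p = 0.0436), where edgeR gave −0.68 (SE 0.21, adjusted p = 0.507). mt-Atp8 had log2 differences of 0.04, −0.24, −0.55, −0.32 and −0.49 beside 0.04, −0.33, −0.51, −0.42 and −0.56 for mt-Atp6.

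**Figure D3:**
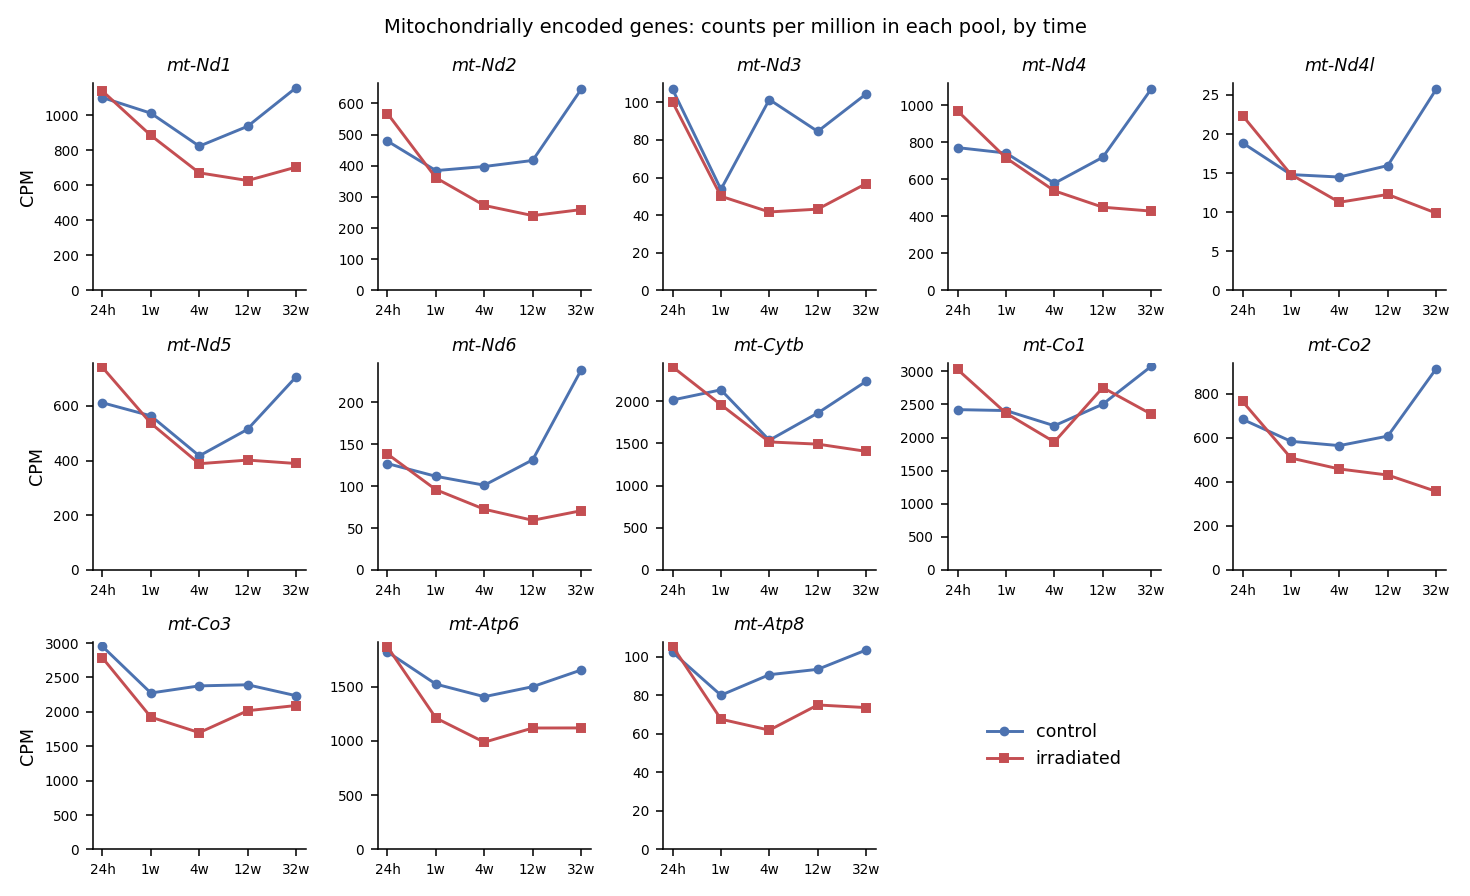
CPM (y axis, from 0) of the 13 mitochondrially encoded genes in each pool by time (x axis), control in blue circles and irradiated in red squares, 1 pool per point. From 4 weeks on the irradiated level lies below the control level in all panels except that of mt-Co1 at 12 weeks, and the 32-week control is the highest control in all but mt-Nd3, mt-Co3 and mt-Atp6.

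The 2 ribosomal RNAs of the mitochondrion, which are no members, showed gaps of the same sign at the late times. mt-Rnr1 stood at 403, 342, 281, 487 and 674 CPM in controls and 409, 287, 253, 192 and 217 CPM in irradiated pools. The irradiated pools of 4, 12 and 32 weeks lay below all controls. Its log2 differences were 0.02, −0.25, −0.15, −1.34 and −1.63, and those of mt-Rnr2 −0.09, −0.24, −0.29, −0.83 and −1.08.

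Genes that maintain, transcribe and translate mitochondrial DNA were split between both directions. Of 37 tested, 21 had a fitted change below 0 and 16 above it, with a median of −0.03, and edgeR called 0 of them, with 1 lower at an unadjusted p under 0.05. That gene was Slirp, which stabilizes mitochondrial mRNAs, with log2 differences of −0.37, −0.24, −0.30, −0.29 and −0.18, lower in 5 of 5 pairs. Tfam, which packages mitochondrial DNA and starts its transcription, had log2 differences of −0.24, −0.69, −0.06, −0.03 and −0.23. Of 12 regulators of mitochondrial biogenesis, 6 lay below 0 and 6 above it with a median of −0.05. Ppargc1a, a coactivator of many respiratory genes, stood at 4.47, 4.31, 6.16, 2.79 and 1.47 CPM in controls and 6.75, 3.68, 6.82, 2.93 and 6.74 CPM in irradiated pools, where the 32-week control was the lowest of the 10. These named genes were chosen after their values were seen.

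The nuclear genes of complexes I, III, IV and V lay, by their medians, a little below the same-time control up to 12 weeks. At 24 hours this did not extend to all 5 controls. Against those the median over the 81 nuclear genes was −0.04, and 6 of 81 lay below the control range, where 20.7% of all genes did. By complex, the median fitted change was −0.16 over 37 genes of complex I, 0.03 over 4 of complex II, −0.13 over 8 of complex III, −0.20 over 15 of complex IV and −0.15 over 17 of complex V. The number below 0 was 34, 2, 8, 14 and 14 in the same order. At 4 weeks the medians against the same-time control were −0.28, 0.08, −0.37, −0.44 and −0.26, and at 32 weeks 0.09, 0.34, 0.19, −0.11 and 0.00. Lower in 5 of 5 pairs were 25 of 81 nuclear genes, where 5.81% of all genes were. Lower without overlap of the groups were 2 of 81, Atp5l and Ndufs8, where 1.49% of all genes were.

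Complex II, with 4 genes, had the median nearest to 0. Sdha, its flavoprotein, stood at 395, 449.7, 371, 445 and 348 CPM in controls and 404, 437, 423, 484 and 449 CPM in irradiated pools. The groups overlapped, the 12-week irradiated pool was the highest and the 32-week control the lowest. Its log2 differences were 0.03, −0.04, 0.19, 0.12 and 0.37 and its fitted change 0.13 (SE 0.09, edgeR adjusted p = 0.63). Sdhb, the iron-sulfur subunit, had 0.07, and the membrane anchors Sdhc and Sdhd had −0.10 and −0.01, both of which turn positive on the FPKM scale. Sdhd had the highest nuclear log2 difference at 32 weeks, 0.58.

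Among the nuclear genes lower in 5 of 5 pairs, the 10 of smallest p were Cox7c, Atp5l, Cox7a2l, Ndufa5, Atp5h, Ndufa6, Atp5e, Ndufa1, Ndufa3 and Cox4i2. Cox7c, a small membrane subunit of complex IV, stood at 93.8, 68.8, 100.3, 83.6 and 92.4 CPM in controls and 76.8, 56.6, 60.7, 63.4 and 77.3 CPM in irradiated pools. Its irradiated pools of 1, 4 and 12 weeks lay below all controls, and those of 24 hours and 32 weeks above the lowest control, that of 1 week. The fitted change was −0.39 (SE 0.10, edgeR adjusted p = 0.263), the smallest p of the nuclear members.

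Atp5l, the g subunit of ATP synthase, stood at 149, 116, 136, 138 and 116 CPM in controls and 114, 86.6, 92.8, 99.3 and 114 CPM in irradiated pools. All 5 irradiated pools lay below all 5 controls, the closest being the irradiated pools of 24 hours and 32 weeks against the 1-week control. The fitted change was −0.37 (SE 0.10, edgeR adjusted p = 0.27). At 32 weeks its log2 difference from the same-time control was −0.02.

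Cox7a2l, which joins complexes III and IV, stood at 117, 103, 104, 108 and 87.7 CPM in controls and 93.4, 73.1, 83.2, 85.2 and 81.5 CPM in irradiated pools. Its irradiated pools of 1 to 32 weeks lay below all controls, and that of 24 hours above the 32-week control. The fitted change was −0.32 (SE 0.09, edgeR adjusted p = 0.293). The other small subunits had fitted changes of −0.32 for Ndufa5, −0.29 for Ndufa6, −0.26 for Ndufa1 and −0.29 for Ndufa3 in complex I, and of −0.28 for Atp5h and −0.31 for Atp5e in complex V. Their edgeR adjusted p lay between 0.346 and 0.379.

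In complex III the lowest fitted change was that of Uqcrh, the hinge protein, at −0.32 (SE 0.10, edgeR adjusted p = 0.331), with log2 differences of −0.42, −0.35, −0.45, −0.42 and 0.04. The highest was that of Uqcrc1, a core protein, at −0.00, with −0.07, −0.25, 0.07, −0.00 and 0.24. In complex I, Ndufs1, the largest subunit and a carrier of iron-sulfur clusters, had the highest at 0.07, and stood at 119, 126, 112, 115 and 98.4 CPM in controls and 119, 118, 116, 116 and 127 CPM in irradiated pools. Those 5 irradiated values lay within a narrower range than the controls, of which the 32-week pool was the lowest.

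Fitted changes were lower in genes whose annotated transcripts were short, with length taken as the median length of a gene's annotated coding transcripts. That median can lie far from the length behind the authors' FPKM, with which counts per FPKM rise. Ndufs1 and Uqcrc1 were placed at 651 and 533 bases but had 43.2 and 29.6 counts per FPKM. Ndufb2 was placed at 2413 bases and had 5.67. The length classes and correlations carry this limit. Of 30 nuclear genes under 600 bases, 29 had a fitted change below 0, with a median of −0.22, and of 32 genes of 600 to under 1000 bases, 30 did, with a median of −0.16. Of 19 genes of 1000 bases and more, 13 did, with a median of −0.05. Over all genes of the same length classes the medians were −0.11, −0.04 and 0.03, from 507, 1960 and 11358 genes. Across the 81 genes, which are not independent replicates, Pearson's r between log length and the fitted change was 0.39 and Spearman's rho 0.49, and across 13825 genes 0.12 and 0.14. By time, r across the 81 genes was 0.04, 0.05, 0.39, 0.45 and 0.15 for the same-time differences, highest at 4 and 12 weeks, and across the 13825 genes 0.06, 0.18, 0.05, 0.10 and −0.07. The points share the same 10 libraries.

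Ribosomal protein genes, whose transcripts are short, also lay below the controls. Of 82 cytoplasmic ribosomal protein genes tested, 81 had a fitted change below 0, with a median of −0.47, and 77 an unadjusted p under 0.05, while edgeR called 0. Their summed share was 2.25% to 3.00% of counts in controls and 1.44% to 2.09% in irradiated pools, without overlap. Of 78 mitochondrial ribosomal protein genes, 68 lay below 0, with a median of −0.13 and 7 lower at an unadjusted p under 0.05, and edgeR called 0. The part of transcript length in these values was not tested.

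**Figure D4:**
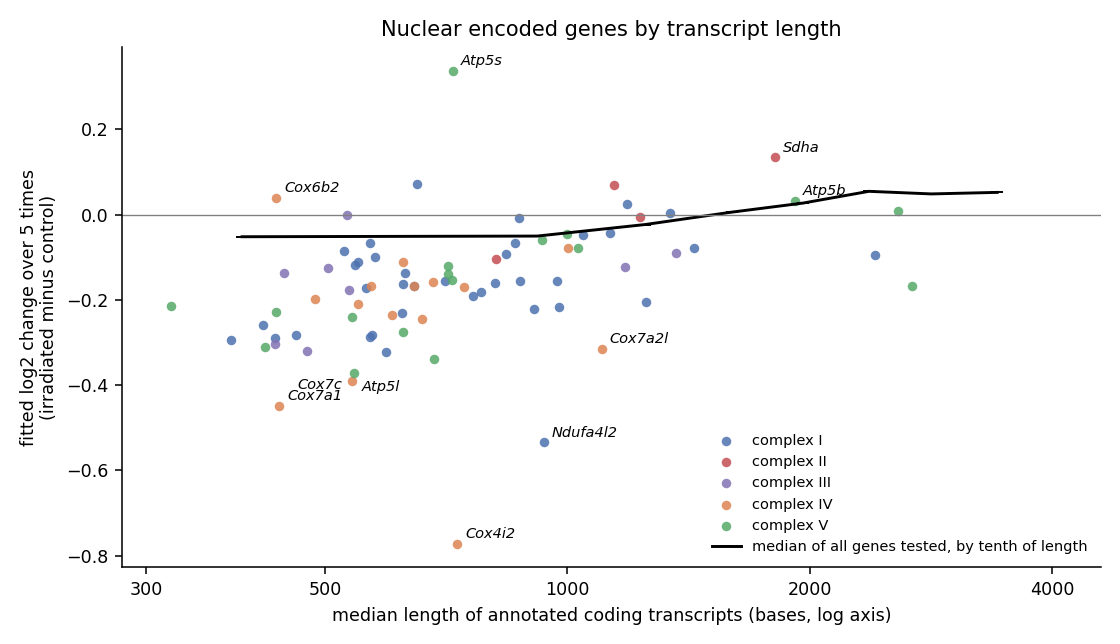
Fitted log2 change over the 5 times (y axis) of 81 nuclear encoded genes against the median length of their annotated coding transcripts in bases (x axis, log scale), coloured by complex. The black line is the median of all genes tested, in bins of length that hold equal numbers of genes. Genes under 600 bases have a median of −0.22 and those of 1000 bases and more −0.05.

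Promoters were read for 68 of the 84 nuclear genes from RefSeq (GRCm38.p6), each from 250 bases before to 50 after the start. The full NRF1 motif, GCGC and GCGC with AT between them, stood in 6.85% of their 73 promoters and in 0.971% of 32851 promoters in all. The looser form, with any 2 bases in place of AT, includes the full one and stood in 26% and 6.23%. The ETS motif CCGGAAG, which GABPA binds, stood in 21.9% and 8.86%, the YY1 motif AAGATGGC in 13.7% and 2.75%, and TATAAA in 11% and 13.6%, all searched on both strands. A match is a run of letters and not a site shown to be bound.

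The promoters of Atp5l, lower without overlap, Cox7c, of smallest p, Cox6a1, with the full NRF1 motif, Sdha, above 0 in the fit, and Cox6b2, called at 24 hours by DESeq2, are shown so that members that differ in the data can be read side by side. They are the 250 bases before the start in GRCm38.p6, all on the minus strand, at chr9:44920743-44920992, chr13:86046796-86047045, chr5:115348959-115349208, chr13:74350241-74350490 and chr7:4753095-4753344 in that order. Capitals mark NRF1, ETS and YY1 motif matches on either strand:
Atp5l: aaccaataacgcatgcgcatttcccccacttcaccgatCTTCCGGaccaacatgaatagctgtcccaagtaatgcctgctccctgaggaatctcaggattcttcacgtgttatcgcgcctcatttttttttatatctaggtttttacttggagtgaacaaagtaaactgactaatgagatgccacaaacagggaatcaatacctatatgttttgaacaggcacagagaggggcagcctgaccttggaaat
Cox7c: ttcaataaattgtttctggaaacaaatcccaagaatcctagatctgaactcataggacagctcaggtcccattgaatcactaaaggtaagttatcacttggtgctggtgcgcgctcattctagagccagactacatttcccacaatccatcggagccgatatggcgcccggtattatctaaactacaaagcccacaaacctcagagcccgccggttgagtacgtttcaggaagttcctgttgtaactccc
Cox6a1: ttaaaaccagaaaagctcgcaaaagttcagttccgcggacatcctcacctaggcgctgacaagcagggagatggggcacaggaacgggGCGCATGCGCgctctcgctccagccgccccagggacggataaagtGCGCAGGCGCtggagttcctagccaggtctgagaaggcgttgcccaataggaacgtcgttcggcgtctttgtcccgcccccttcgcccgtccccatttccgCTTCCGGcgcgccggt
Sdha: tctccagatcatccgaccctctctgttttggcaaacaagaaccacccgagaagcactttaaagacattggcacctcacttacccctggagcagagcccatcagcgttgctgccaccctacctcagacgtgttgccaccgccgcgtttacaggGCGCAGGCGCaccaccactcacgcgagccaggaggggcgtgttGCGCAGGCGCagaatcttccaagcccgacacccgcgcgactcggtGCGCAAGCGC
Cox6b2: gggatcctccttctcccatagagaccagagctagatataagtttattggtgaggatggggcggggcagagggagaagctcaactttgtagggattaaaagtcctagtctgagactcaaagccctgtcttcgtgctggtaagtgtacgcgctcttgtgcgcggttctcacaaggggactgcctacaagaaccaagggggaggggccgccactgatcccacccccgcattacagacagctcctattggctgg

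Atp5l holds 1 ETS match, which begins 212 bases before the start. Cox6a1 holds the full NRF1 motif 162 bases before the start, a looser one at 117 and an ETS match at 16. Sdha holds looser NRF1 matches at 98, 55 and 10. Cox7c and Cox6b2 hold none in this window. The RefSeq start used lies 109, 23 and 40 bases inside the GENCODE gene for Cox7c, Cox6a1 and Sdha. Their windows therefore reach less far upstream of the GENCODE start. Cox6a1 and Sdha, which both carry NRF1 matches, had fitted changes of −0.17 and 0.13 (edgeR adjusted p = 0.533 and 0.63). They are 2 of 18 members with the looser motif and were picked for display. Changes of members with and without a match were not compared.

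Several complex IV subunits have a widely expressed form and a form restricted to some tissues. Cox4i1, the wide form of subunit 4, stood at 475, 395, 462, 417 and 391 CPM in controls and 429, 315, 367, 343 and 462 CPM in irradiated pools, with the pools of 1, 4 and 12 weeks below all controls and that of 32 weeks within the control range. Cox4i2, the form known from lung and induced by low oxygen, stood at 4.63, 3.66, 6.42, 2.45 and 3.12 CPM in controls and 3.86, 2.76, 2.53, 1.00 and 1.99 CPM in irradiated pools. It was lower in 5 of 5 pairs, the groups overlapped, and its counts were small. Its fitted change, −0.77 (SE 0.28, edgeR adjusted p = 0.379), was the lowest of the nuclear members. Per length, Cox4i1 stood at 561 ± 62.4 FPKM in controls and Cox4i2 at 4.47 ± 1.70 FPKM (SD, n = 5 each).

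Cox6a1, the wide form of subunit 6A, had log2 differences of −0.02, −0.19, −0.28, −0.02 and −0.32. Cox6a2, its heart and muscle form, stood at 16.3, 12.8, 12.0, 5.83 and 13.2 CPM in controls and 12.1, 17.0, 15.4, 7.25 and 4.45 CPM in irradiated pools. The groups overlapped, and the 32-week irradiated pool was the lowest of the 10. At 32 weeks edgeR gave −1.43 (SE 0.53, adjusted p = 0.212) against the 5 controls. Cox7a1, another heart and muscle form, had 3.23, 1.38, 1.82, 2.20 and 2.20 CPM in controls and 3.14, 1.09, 0.690, 1.39 and 2.22 CPM in irradiated pools, few reads in every pool. The summed level of 8 cardiac muscle markers was 42.0 to 78.6 CPM in controls and 32.8 to 85.1 CPM in irradiated pools, with Nppa alone too low to be tested, and the 7 tested had median log2 differences of −0.13, −0.53, −0.61, 0.50 and 0.36. Their part in the levels of Cox6a2 and Cox7a1 was not tested.

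Cox6b2, a form of subunit 6B known from testis, stood at 15.1, 12.0, 13.2, 14.0 and 12.6 CPM in controls and 30.2, 13.9, 9.66, 10.4 and 11.3 CPM in irradiated pools. The 24-hour irradiated pool was the highest of the 10, and those of 4, 12 and 32 weeks lay below all controls. At 24 hours edgeR gave 1.17 (SE 0.25, adjusted p = 0.0583) against the 5 controls, DESeq2 1.16 (SE 0.30, adjusted p = 0.00475) and limma on log2(FPKM + 1) 1.28 (SE 0.23, adjusted p = 0.0317). It was the only member called by DESeq2 and limma at that time. Cox6b1, the wide form, had log2 differences of −0.10, −0.25, −0.47, −0.28 and 0.10.

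Ndufa4 stood at 197, 158, 201, 192 and 172 CPM in controls and 196, 137, 130.0, 131 and 171 CPM in irradiated pools, lower in 5 of 5 pairs, with the pools of 1, 4 and 12 weeks below all controls. Its relative Ndufa4l2, known as induced by low oxygen, had 2.90, 2.52, 3.04, 2.45 and 2.94 CPM in controls and 2.57, 2.43, 1.61, 2.16 and 1.07 CPM in irradiated pools, also lower in 5 of 5 pairs and with few reads. The 3 genes for subunit c of ATP synthase encode the same mature protein. Their fitted changes were −0.17 for Atp5g1, −0.34 for Atp5g2 and −0.15 for Atp5g3. Cox7a2 and Cox8a, wide forms of their subunits, had −0.24 and −0.21, each lower in 5 of 5 pairs.

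**Figure D5:**
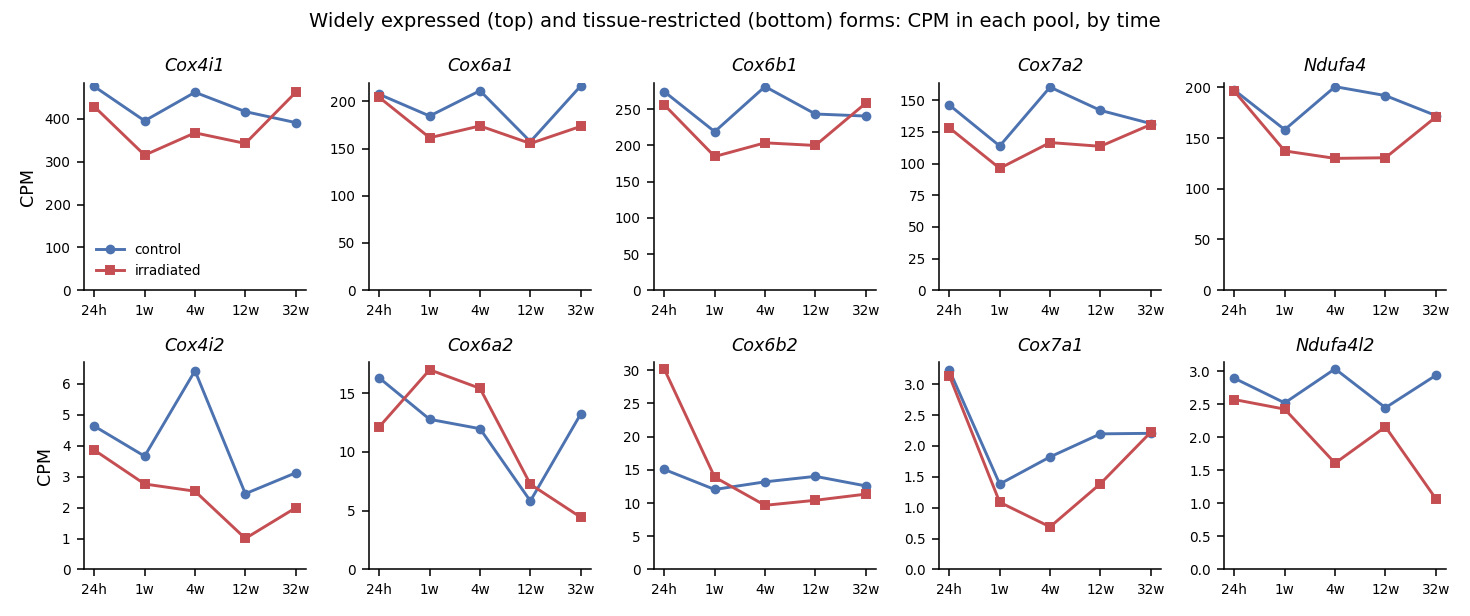
CPM (y axes, from 0) by time (x axis) of widely expressed subunit forms (top) and their tissue-restricted relatives (bottom) in each pool, control in blue circles and irradiated in red squares. Cox6b2 reaches 30.2 CPM in the 24-hour irradiated pool and 9.66 to 15.1 CPM in the other 9, and Cox4i2 lies below its control at each time.

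Atp5s was the only nuclear member higher in 5 of 5 pairs, where 6.72% of all genes were. It stood at 5.30, 3.83, 5.12, 4.65 and 7.07 CPM in controls and 5.63, 6.36, 7.74, 5.48 and 7.28 CPM in irradiated pools, and the groups overlapped. Its fitted change was 0.34 (SE 0.22, edgeR adjusted p = 0.604), the highest of the members.

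At single times the lowest and highest nuclear differences from the same-time control were these. At 24 hours Cox6a2, Uqcrh, Atp5l, Atp5e and Ndufb10 were lowest, from −0.42 to −0.34, and Cox6b2 highest at 0.99, with Atp5s, Ndufs7 and Ndufa10 at 0.05 to 0.09. At 1 week Cox7a2l, Atp5g2, Ndufb7, Atp5l and Ndufs4 were lowest, from −0.49 to −0.40, and Atp5s, Cox6a2, Cox6b2, Ndufa10 and Cox7b highest, from 0.71 to 0.01. At 4 weeks Cox4i2, Cox7a1, Ndufa4l2, Cox7c and Atp5e were lowest, from −1.29 to −0.67, and Atp5s, Cox6a2, Sdha, Sdhd and Ndufa10 highest, from 0.58 to 0.09. At 12 weeks Cox4i2, Ndufs5, Ndufa2, Cox7a1 and Ndufs6 were lowest, from −1.16 to −0.59, and Cox6a2, Ndufs7, Atp5s, Ndufb2 and Atp5d highest, from 0.31 to 0.17. At 32 weeks Sdhd, Ndufb4, Atp5c1, Ndufb8 and Ndufv2 were highest, from 0.58 to 0.37, while Cox6a2, Ndufa4l2, Cox4i2, Atp5g2 and Atp5d were lowest, from −1.54 to −0.37. Of these 5 highest, all but Sdhd had been below their control at each earlier time, and the 32-week control was the lowest of the 5 controls for all of them.

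Genes around the chain had medians nearer to 0 or above it. Of 45 assembly factors, 31 lay below 0, with a median fitted change of −0.06, and edgeR called 0, with 0 at an unadjusted p under 0.05. Of 22 electron carriers, coenzyme Q genes and carriers of the inner and outer membrane, 13 lay below 0, with a median of −0.03 and 0 at that level. Of 18 genes of the tricarboxylic acid cycle, 14 lay above 0, with a median of 0.05, and edgeR called 0, with 2 higher at an unadjusted p under 0.05. The highest was Ogdh, a subunit of the oxoglutarate dehydrogenase complex, which stood at 380.0, 371, 387, 411 and 283 CPM in controls and 451, 472, 454, 488 and 549.6 CPM in irradiated pools. Of 18 glycolysis genes, 16 lay above 0, with a median of 0.15, and edgeR called 0, with 0 at that level. At 32 weeks the medians of the 4 lists against the same-time control were 0.07, 0.23, 0.29 and 0.26 in that order, beside 0.07 for the nuclear members and −0.86 for the mitochondrial ones. That 1 control had the lowest summed level of the 5 controls for each of these lists but glycolysis. It had the highest for the mitochondrial members, whose median at 32 weeks against all 5 controls was −0.53.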

How the data were processed

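The submitters' processing notes name Trimmomatic 0.32, STAR 2.4.2a, Cufflinks 2.0.2, Cuffdiff and the build GRCm38.p4, without the settings of each step. The deposited expected counts per gene were mostly multiples of a step of 0.576 to 1.38 counts for each library, taken as 1 fragment. Of values below 50, 79.1% to 80.7% lay within 0.05 of a whole multiple. The deposited FPKM were used for levels per length and for alternatives. RNA was extracted with RNeasy PLUS and libraries were made with a Clontech ultralow kit and NexteraXT, per the labels. NexteraXT does not mark strand.

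Ensembl identifiers were matched to GENCODE M21 (45223 of 45786, with 563 unmatched holding at most 0.135% of counts). Expected counts were rounded, filtered with filterByExpr (minimum count 10) and tested in edgeR 4.0.16 (R 4.3.3) with TMM factors (0.928 to 1.09), robust quasi-likelihood F tests and Benjamini-Hochberg adjustment over 15585 genes. Irradiated pools were compared with controls over the 5 times (time as block, 4 residual degrees of freedom), each with the 5 controls (4), for a change of effect with log2 days (3), and controls for a slope over time (6). Same-time differences used log2 CPM with a prior count of 2. DESeq2 1.42.0 and limma 3.58.1 on log2(FPKM + 1) or log2(FPKM + 0.1) were alternatives, with fold changes on that scale, beside other scalings, no filter, no block and pairs or controls left out.

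Members and gene lists were chosen with earlier results of these data known. Named are the mitochondrial genes, complex II, isoforms with a relative, the 10 nuclear genes of smallest p with 5 of 5 pairs alike, the 5 nuclear genes of largest difference in each direction at each time, genes called, and the highest and lowest of each complex. Genes named beyond that rule were chosen after their values were seen. The single values of 1 gene that the rule names are not reported here.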

Additional observations from a re-analysis of the deposited data

Results flagged for a closer look

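In groups of 5 pools, 7 of 126 sets of values held 1 pool set apart from the other 4 by more than 0.710 of the group's range (Dixon's criterion), where chance gives about 1 in 20. The 24-hour pool was the highest irradiated pool in the share of counts of the 13 mitochondrial genes (1.36%), in mt-Atp6 (1867 CPM), in mt-Nd3 (100.2 CPM) and in Cox6b2 (30.2 CPM). In mt-Co3 the 24-hour control stood above the other controls at 2951 CPM. In mt-Nd6 the 32-week control stood above the others at 238 CPM, which enters its 32-week difference of −1.75. Without that control, mt-Nd6 at 32 weeks was −0.74 against the other 4 controls (SE 0.21, edgeR adjusted p = 0.123), beside −1.01 (SE 0.42, adjusted p = 0.266) with it. In Ndufv2, a flavoprotein subunit of complex I, the 32-week control was the lowest at 109 CPM, beside its 32-week difference of 0.37.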

How the results depend on the processing

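edgeR called 0 members in every comparison under each scaling, with no filter, with counts divided by the library step, and with any pair or control left out (0 to 0). DESeq2 called 1 member over the 5 times, 1 at 24 hours, 1 at 4 weeks, 1 at 12 weeks, 2 at 32 weeks and 3 for the change with time, and limma on FPKM called 1 at 24 hours with either pseudocount. Without the block that pairs pools of the same time, the median change over the 5 times was −0.33 for mitochondrial and −0.15 for nuclear genes, with 0 called and 2 and 14 genes lower at an unadjusted p under 0.05. With pairs left out these medians ran from −0.46 to −0.25 and from −0.20 to −0.13. The FPKM scale moved the median of all genes over the 5 times from 0.01 to 0.11 (pseudocount 1) and 0.14 (0.1). On that scale the medians over the 5 times were −0.26 for mitochondrial genes and −0.033 for nuclear genes, with either pseudocount. The same-time medians were −0.66 at 32 weeks for mitochondrial genes (pseudocount 1), and for nuclear genes −0.12 and −0.12 at 4 weeks, −0.11 and −0.11 at 12 weeks and 0.33 and 0.34 at 32 weeks, beside 0.24 and 0.32 for all genes at 32 weeks. The nuclear median was −0.11 at 12 weeks relative to genes of like transcript length, an alternative chosen after seeing the data, and −0.11 at 32 weeks scaled to total counts. The ratio of mitochondrial to nuclear levels at 32 weeks was −1.30 (log2) by medians. Signs of some single genes over the 5 times turned. With pairs left out in turn, mt-Co1 ran from −0.11 to 0.066, Sdhd from −0.15 to 0.066, Uqcrc1 from −0.062 to 0.062, Ndufs1 from −0.0032 to 0.11, Cox6a2 from −0.31 to 0.16 and Cox6b2 from −0.20 to 0.16. The pairs without which the sign turned were those of 4 or 32 weeks for mt-Co1, of 24 hours, 1 or 12 weeks for Sdhd, of 24 hours or 1 week for Uqcrc1 and Cox6b2, and of 32 weeks for Ndufs1 and Cox6a2. On log2(FPKM + 1) and log2(FPKM + 0.1), mt-Co1 was 0.085 and 0.085, Sdhd 0.12 and 0.12, Uqcrc1 0.13 and 0.13 and Sdhc 0.019 and 0.019. By total counts Cox6b2 was −0.023. The cause was not tested, and 1 pool for each time and dose limits what can be seen. The other 551 values of named genes over the 5 times kept their direction and side of the threshold, and mt-Nd3 passed it with DESeq2. This count does not cover single times or the change with time, where further named genes passed it with DESeq2 or limma, as given above.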
